A study of Mus musculus with 4 samples.

Results

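The ends of the 19 mouse autosomes that face the telomere were examined in 4 libraries of methylation-assisted bisulfite sequencing (MAB-Seq). An end was defined as all listed sites on chromosomes 1 to 19 that start within 1.5 Mb of the highest position listed for that chromosome in any library. Of 472220 listed sites, 5863 lay in these ends, or 1.24%. The first whole-genome library contributed 4093, the second 1444, the control shRNA library 213 and the Tdg shRNA library 113. Each end was compared with the 10 Mb that precede it on the same chromosome, which held 57009 sites.

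All libraries came from E14, a mouse embryonic stem cell line. The group labelled wt had 2 whole-genome libraries, and the groups with a control shRNA and an shRNA against Tdg had 1 reduced-representation library each, cut with MspI, whose recognition site contains a CpG. All DNA was treated with M.SssI, which methylates unmodified CpG cytosines, so that a cytosine still converted by bisulfite carried 5-formylcytosine (5fC) or 5-carboxylcytosine (5caC) or escaped the enzyme. Levels are percentages of converted reads, corrected by the authors for background. Separate cultures for the wild-type libraries, and pools or clones for the shRNA cells, are not named in the labels, and the extent of Tdg depletion was not analysed here.

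Mouse autosomes carry the centromere close to the low-coordinate end, so the high-coordinate end is the one followed by the long arm's telomere. The DNA next to the telomeric repeats, the subtelomere, is methylated in mouse embryonic stem cells, and DNA methyltransferases are known to restrain recombination between telomeres there. TET enzymes oxidise 5-methylcytosine to 5-hydroxymethylcytosine, 5fC and 5caC, and TDG is the glycosylase that excises 5fC and 5caC. The telomeric repeats themselves were not analysed here.

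Short stretches of neighbouring CpGs could be read in 5 of the 6 windows of 10 kb with the most CpGs listed in both whole-genome libraries. They are shown because such CpGs were listed together on the plus strand in some stretches and not in others. They come from the overlapping 5-base contexts deposited with the first whole-genome library, on the plus strand of mm9, and capitals mark the listed CpGs. The first lies in the window with the most shared CpGs, the others lie in windows with 3 each, and the window on chromosome 11 held no such stretch.
chr4:154354123-154354149: tgCGCGCGCGctCGCGctCGCGCGCGc
chr8:131267658-131267666: tgCGCGCGt
chr13:120217143-120217151: tgCGCGCGt
chr9:123160191-123160199: tgCGtgCGt
chr9:123160211-123160219: tgCGCGCGt
chr2:181022699-181022709: ggCGgCGgCGg
All 10 CpGs of the chromosome 4 stretch, all 3 of the chromosome 8 stretch, all 3 of the chromosome 13 stretch and both of the first chromosome 9 stretch were listed in both whole-genome libraries. On the plus strand, the only one matched, the second library listed none of the 3 CpGs of the second chromosome 9 stretch. The letters of that stretch equal those of chromosomes 8 and 13. None of the 3 CpGs of the chromosome 2 stretch was listed on the plus strand either. The chromosome 9 window held 9 second-library sites, all 9 on the plus strand, and the chromosome 2 window held 9, with 5 on the plus strand. In the first library, the chromosome 4 stretch had levels from 35.3% at position 154354147 to 100% at position 154354137. In the second library, reads could be recovered from the deposited p-value at 3 of these CpGs, where 9 of 76, 13 of 76 and 9 of 72 reads were converted. These lay at positions 154354125, 154354131 and 154354147, with first-library levels of 40.4%, 37.2% and 35.3%. Reads are recovered only at p-values above 1e-07, so these 3 do not give the level of the whole stretch in the second library. The p-value of the other 7 was listed as 0.

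Most ends held fewer sites per Mb than the sequence before them in whole-genome DNA of wild-type cells, and a few held more. The first library listed 143.6 sites per Mb in the ends (95% Poisson interval 139.2 to 148.1) and 212.7 (210.6 to 214.8) in the preceding 10 Mb, a ratio of 0.675 (0.654 to 0.697). The second library listed 50.7 sites per Mb (48.1 to 53.3) and 74.9 (73.7 to 76.2), a ratio of 0.676 (0.640 to 0.714). The mean ratio of the wild-type libraries was 0.676 ± 0.00078 (SD, n = 2). This SD is over unlike lists, since the first library lists the plus strand only and the second both strands. On the plus strand alone the second library had a ratio of 0.644 (0.594 to 0.697). In both libraries the ratio was well below 1, and over all listed sites the libraries differed by less than the interval of either. All intervals hold counting error only and treat neighbouring sites as independent, and no p-value was computed across sites or chromosomes.

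The comparison depends on what precedes the ends. The preceding 10 Mb were themselves dense: over the whole rest of the autosomes the first library listed 135.0 and the second 47.5 sites per Mb. Against that whole rest, the ends had ratios of 1.06 (1.03 to 1.10) and 1.07 (1.01 to 1.12). These pooled ratios rest on a few rich ends: the 4 with most sites in the first library, on chromosomes 4, 11, 2 and 15, held 51.9% of the sites of the ends in the first library and 56.8% in the second. By chromosome, 6 of 19 ends in the first library and 5 of 19 in the second were denser than the whole rest, against 39.5% and 40.8% of all 1474 stretches of 1.5 Mb tiled back from the ends. Among the stretches of its own chromosome, between 38 and 129, the end of the median chromosome held more sites than 46.9% of stretches in the first library and 39.5% in the second.

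Ends differed from each other far more than the libraries did. In the first library 14 of 19 ends were sparser than their preceding 10 Mb and 5 were denser, where 45.5% of all 1474 stretches of 1.5 Mb were denser than theirs. The second library also had 5 denser ends, against 45.9% of stretches. The interval of the ratio lay wholly above 1 at 3 and 2 ends, against 37.9% and 33.5% of stretches. It lay wholly below 1 at 13 ends in each library, against 45.9% and 40.8% of stretches. Ends at under 0.5 times the preceding density numbered 8 in the first library and 10 in the second, against 23.7% and 26.6% of stretches. The ends of chromosomes 2, 4, 7 and 15 were denser in both libraries, and 13 were sparser in both. Across the 19 ends, Spearman's rho of the ratios of both libraries was 0.90, a description over points that share sequence content and mappability.

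**Figure D1:**
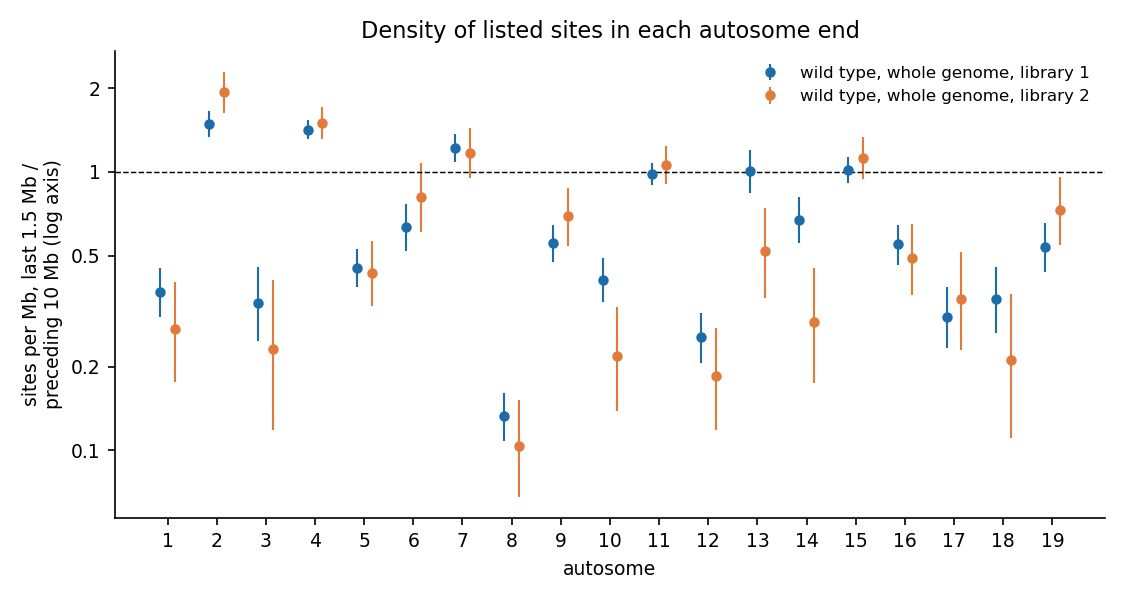
Ratio of sites per Mb in the last 1.5 Mb to the preceding 10 Mb (log axis) for each autosome, with exact 95% intervals for counting error; the dashed line marks equal density. In both libraries the ends of chromosomes 2, 4, 7 and 15 lie above the line and that of chromosome 8 is the lowest, at 0.133 and 0.104.

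The end of chromosome 4 was the richest. It held 753 sites in the first library, 291 in the second, 39 with control shRNA and 21 with Tdg shRNA, and was the stretch of 1.5 Mb with the most sites of its chromosome in all 4 libraries, tied with others in the Tdg shRNA library. Its ratio to the preceding 10 Mb was 1.42 (1.31 to 1.53) in the first and 1.5 (1.32 to 1.71) in the second library. The last named protein-coding genes of chromosome 4, by their order in GRCm38.p6, a later build whose coordinates were not used, include Agrn, which encodes the agrin that organises neuromuscular synapses, Isg15, an interferon-induced ubiquitin-like modifier, and Noc2l, a histone acetyltransferase inhibitor.

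The end of chromosome 2 had the highest ratio of all. It held 422 sites in the first library, 179 in the second, 27 with control shRNA and 15 with Tdg shRNA. The ratios were 1.48 (1.33 to 1.65), 1.93 (1.63 to 2.28), 2.77 (1.70 to 4.40) and 2.70 (1.38 to 5.04), so that every library listed more sites per Mb there than before it. Genes last in order on chromosome 2 include Sox18, a transcription factor of endothelial cells, Myt1, a zinc finger factor of neural cells, and Oprl1, the nociceptin receptor.

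The ends of chromosomes 7, 15 and 13 completed the 5 highest of the first library. Chromosome 7 held 356, 114, 20 and 4 sites in the first, second, control shRNA and Tdg shRNA libraries, with a ratio of 1.22 (1.09 to 1.37) in the first and 1.17 (0.953 to 1.43) in the second. Its last genes in order include Ccnd1, which encodes cyclin D1, and the fibroblast growth factors Fgf4 and Fgf15. Chromosome 15 held 408, 161, 28 and 11 sites in the same order of libraries, with ratios of 1.02 (0.914 to 1.13) and 1.13 (0.946 to 1.33) in the whole-genome libraries, both of which include 1. Chromosome 13 held 147 and 33 sites in the whole-genome libraries, which lay on different sides of equal density, at 1.01 (0.842 to 1.20) and 0.52 (0.353 to 0.742). Its last genes in order include Tcstv1 and Tcstv3, which are expressed in early cleavage-stage embryos.

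The ends of chromosomes 8, 12, 17, 3 and 18 had the lowest ratios of the first library. Chromosome 8 held 105 sites in the first library, 27 in the second, 3 with control shRNA and 1 with Tdg shRNA, where the preceding 10 Mb held 5276, 1734, 152 and 98. Its ratio was 0.133 (0.108 to 0.161) in the first library, and that stretch before it was the densest of the 19 in this library, at 527.6 sites per Mb. Chromosomes 12, 17, 3 and 18 had ratios of 0.255, 0.302, 0.340 and 0.349 in the first and 0.184, 0.350, 0.231 and 0.210 in the second library. No control shRNA site was listed in the end of chromosome 12 and no Tdg shRNA site in that of chromosome 18. Genes last in order include Itgb1, Nrp1 and Pard3 on chromosome 8, which act in cell adhesion, axon guidance and cell polarity, and the gonadotropin receptors Fshr and Lhcgr on chromosome 17. Whether any gene named here lies within the last 1.5 Mb of mm9 was not analysed here.

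The density changed within the last 1.5 Mb without a steady trend. In the first library it was 161.6 sites per Mb within 100 kb of the last listed site, 121.8 from 100 to 250 kb, 151.4 from 250 to 500 kb, 135.3 from 500 to 1000 kb and 151.1 from 1000 to 1500 kb. Between 1500 and 3000 kb it was 204.0, a ratio of 0.959 (0.933 to 0.986) to the whole preceding 10 Mb. In the second library the 100 kb next to the end had 67.9 sites per Mb, a ratio of 0.906 (0.756 to 1.08), and the next 150 kb had 30.2, a ratio of 0.403 (0.322 to 0.498). The outermost bin begins at a listed site by the definition of the end, which adds at least 1 site to it on each chromosome.

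**Figure D2:**
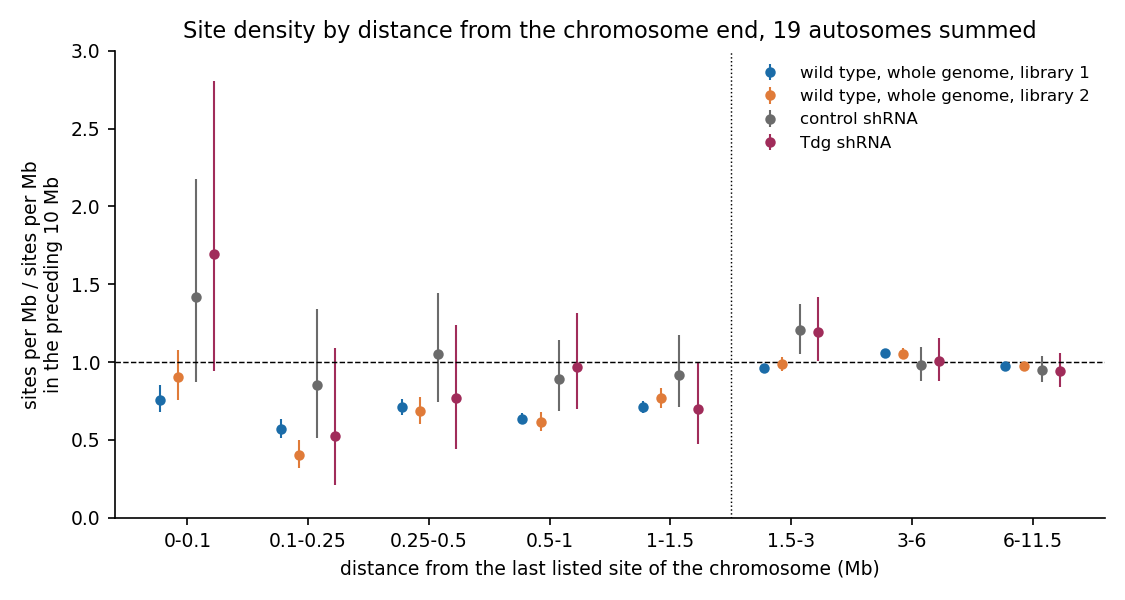
Sites per Mb by distance from the last listed site, relative to the preceding 10 Mb, summed over 19 autosomes, with exact 95% intervals; the dotted line marks 1.5 Mb. The wild-type libraries lie at 0.403 to 0.906 inside 1.5 Mb and between 0.959 and 1.06 outside it.

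The lower density went with a larger share of 10 kb windows without a listed site. Of 10 kb windows, 48.2% in the ends and 66.5% in the preceding 10 Mb held a site of any library. The share was lower in the end on 15 of 19 chromosomes, against 49.9% of all stretches of 1.5 Mb, and ranged from 19.3% on chromosome 3 to 89.3% on chromosome 4. The longest stretch without any listed site in an end was 257.3 kb, on chromosome 1, and the median over ends was 104.9 kb. Counted per window that held a site, the density ratio of the ends was 0.931 (0.901 to 0.961) in the first library. It was 0.932 (0.883 to 0.984) in the second. The windows counted are those that the same lists occupy, so a sparser region loses windows as well as sites. Both ratios are thereby drawn towards 1, and the part of empty sequence in the lower density was not tested. By chromosome, the first library had fewer sites per such window in the end on 13 of 19, against 58.2% of stretches. How many CpGs, gaps or unmappable bases the windows contain was not analysed here.

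Where sites were listed in the ends, they lay closer together. In the first library the median distance to the next listed site was 420 bp in the ends and 968 bp in the preceding 10 Mb, and 36.4% (34.9% to 37.9%) and 29.0% (28.6% to 29.4%) of sites had the next within 100 bp. The median distance was shorter in the end on 13 chromosomes, against 43.4% of stretches, among them chromosome 14 with 111 bp against 1753 bp. In the second library, which lists both strands, the medians were 2936 and 3860 bp.

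**Figure D3:**
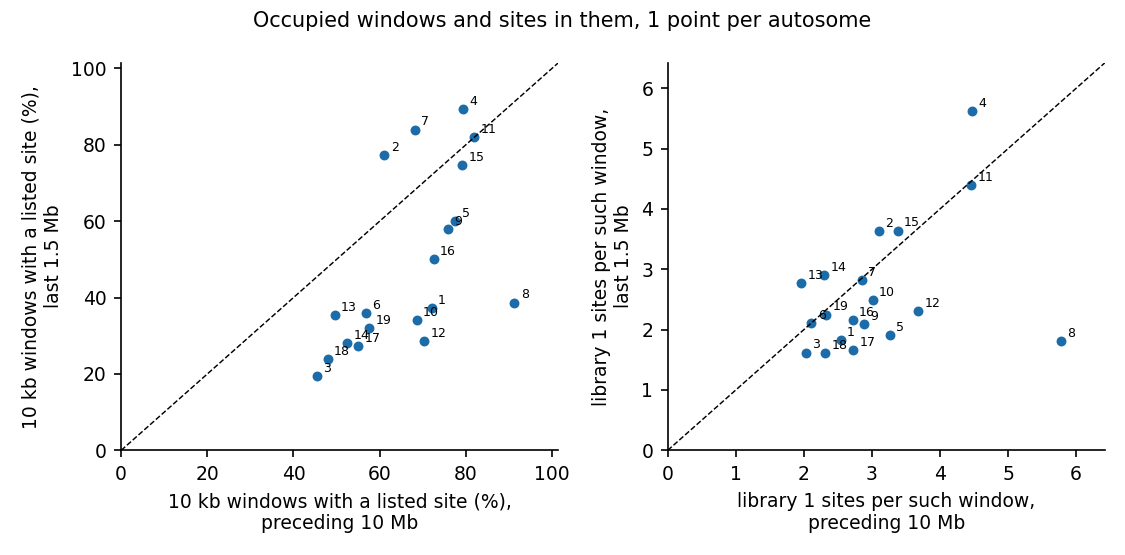
Left, percentage of 10 kb windows with a listed site of any library in the last 1.5 Mb against the preceding 10 Mb, 1 point per autosome, numbered; right, first-library sites per such window; dashed lines mark equality. The ends of chromosomes 2, 4 and 7 lie above the line on the left, where chromosome 11 lies on it at 82.0%, and chromosome 8 lies farthest below it.

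Sites of the ends were more often flanked by G and C. In the first library, the only one with sequence, 40.4% (38.9% to 41.9%) of CpGs in the ends and 34.3% (33.8% to 34.7%) of those before them had G or C on both sides. The share was higher in 17 of 19 ends, against 46.1% of stretches, the exceptions being chromosomes 5 and 7. The density ratio was 0.795 (0.755 to 0.837) for these CpGs, 0.616 (0.586 to 0.646) for CpGs with 1 such flank and 0.604 (0.555 to 0.656) for those with A or T on both sides. CpGs in an MspI site had 0.805 (0.730 to 0.886).

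The leading contexts of the ends were these, with the CpG in capitals.
ends, rank 1: ggCGg
ends, rank 2: ccCGg
ends, rank 3: tgCGt
The context ggCGg made up 4.62% of sites in the ends and 3.33% before them, and ccCGg 3.93% and 3.12%. The context tgCGt, whose letters alternate between pyrimidine and purine, was the most frequent in the preceding 10 Mb with 4.79% (4.58% to 5.00%). It made up 3.44% (2.91% to 4.05%) of sites in the ends, a density ratio of 0.486 (0.407 to 0.577). Among all 64 contexts, the lowest ratio was 0.395 (0.296 to 0.517) for caCGt and the highest 1.49 (1.06 to 2.07) for cgCGa, with 45 sites in the ends. Genome-wide numbers of each context were not used, so these shares describe the lists and are no enrichment.

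Alternating CG runs, taken as at least 3 listed CpGs spaced 2 bp apart, as in the printed stretches of chromosomes 4, 8 and 13 and the second of chromosome 9, numbered 16 in the ends with 70 CpGs and 137 in the preceding 10 Mb with 563. They held 1.71% (1.34% to 2.16%) and 1.39% (1.28% to 1.51%) of the sites of the first library. Their median level was 40.5% (30.2% to 66.3%) in the ends and 24.0% (18.2% to 28.5%) before them. Chromosome 4 held 16 of the 70. Without it the medians were 32.2% (21.3% to 53.7%) and 23.6% (18.1% to 28.0%), so that the intervals then overlap. The second library listed 21.4% (12.5% to 32.9%) and 24.2% (20.7% to 27.9%) of these CpGs on the plus strand.

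Levels in the ends were close to those of the preceding sequence. In the first library the median level was 11.2% (10.9% to 11.6%) in the ends and 10.8% (10.6% to 10.9%) before them, and 21.9% and 21.8% of sites were listed at 0. Without the sites at 0 the medians were 14.2% (13.8% to 14.7%) and 13.4% (13.3% to 13.5%). The median was higher in the end on 15 of 19 chromosomes, against 52.2% of stretches, but its interval lay above the preceding median on only 1, chromosome 14, against 10.4% of stretches. The interval lay below the preceding median on chromosome 19, against 10.6% of stretches. End medians ranged from 9.90% on chromosome 19 to 14.6% on chromosome 14. Within 500 kb of the last listed site the median exceeded that of the 10 Mb before by 1.34 points, and within 3 Mb by 0. The interval of the former was 0.825 to 2.06, with the preceding median taken as fixed. At 90% or more were 87 sites in the ends, 2.13% (1.71% to 2.62%), and 847 before them, 2.10%.

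The shRNA libraries had few sites in the ends and no clear difference in level. With control shRNA the median level was 9.89% (9.37% to 10.8%) in the ends and 9.37% (8.90% to 9.89%) before them, and with Tdg shRNA it was 11.4% in both (9.0% to 13.8% in the ends). Of ends with at least 5 sites in the end and before it, 7 of 13 had the higher median with control shRNA, against 48.6% of stretches, and 3 of 9 with Tdg shRNA, against 44.8%. Of the 7 Tdg shRNA sites at 90% or more, 5 lay within 100 kb of the last listed site, where 15 of its 113 sites lay. With control shRNA these numbers were 4 of 13 and 21 of 213, and in the first whole-genome library 11 of 87 and 307 of 4093. The shares of sites at 90% or more within 100 kb were 71.4% (29.0% to 96.3%) with Tdg shRNA and 30.8% (9.09% to 61.4%) with control shRNA. In the first whole-genome library the share was 12.6% (6.48% to 21.5%). The shares of the shRNA libraries rest in part on the same sites. Positions 129979388 and 129979396 on chromosome 10, which are neighbours, and 120276942 on chromosome 13 were at 100% in both.

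Fewer sites of the ends were common to both whole-genome libraries at the same base. On the plus strand, the first library also listed 209 of the 683 sites of the second in the ends, or 30.6% (27.2% to 34.2%), and 2541 of 7071 or 35.9% (34.8% to 37.1%) in the preceding 10 Mb. Among the 14 ends with at least 10 such sites, 5 had a higher share than before them, against 47.5% of stretches. The end of chromosome 4 had the most sites and a share of 23.8% (17.7% to 30.9%) against 45.0% (41.0% to 49.0%) before it. Without chromosome 4, the shares differed by -2.20 points (-6.26 to 2.06, with the preceding share taken as fixed). Within 100 bp, the same base included, the direction was opposite. In the ends 66.3% (62.6% to 69.9%) of these sites had a first-library site that near, and 62.1% (60.9% to 63.2%) before them. First-library sites also lay closer together in the ends, where 36.4% had the next within 100 bp, against 29.0% before them. The part of this spacing in the opposite direction was not tested.

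Evidence per site in the second library was somewhat lower in the ends. In the second library 7.06% (5.80% to 8.51%) of sites in the ends and 10.8% (10.3% to 11.4%) before them had p-values at or below 1e-12. Recovered reads had a median of 12 (12 to 13) in the ends and 13 (13 to 13) before them. Of sites with recovered reads, 6.17% (4.92% to 7.62%) and 8.70% (8.20% to 9.21%) had 31 or more. Reads were recovered only at p-values above 1e-07, at 89.8% of sites in the ends and 85.5% before them. Values by reads thus leave out the sites with the lowest p-values, a larger share of them before the ends. Within bins of the p-value the intervals of ends and preceding sequence overlapped in all 5: the share was 78.0% (64.0% to 88.5%) in the ends and 72.4% (69.1% to 75.5%) before them at or below 1e-12, 46.9% and 49.4% up to 1e-06, 29.4% (23.2% to 36.3%) and 37.1% (35.0% to 39.2%) up to 0.001, 32.4% and 32.4% up to 0.005, and 19.5% (14.9% to 24.8%) and 23.4% (21.8% to 25.1%) above it. Up to 0.001, the interval of the ends lay below the preceding share. By recovered reads, the share was 19.9% (15.6% to 24.9%) in the ends and 24.1% (22.5% to 25.7%) before them at 10 to 12 reads. It was 29.6% (24.2% to 35.5%) and 35.0% (33.1% to 36.8%) at 13 to 30 reads, and 46.5% and 42.7% at 31 or more. The part of depth in the difference was not tested.

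**Figure D4:**
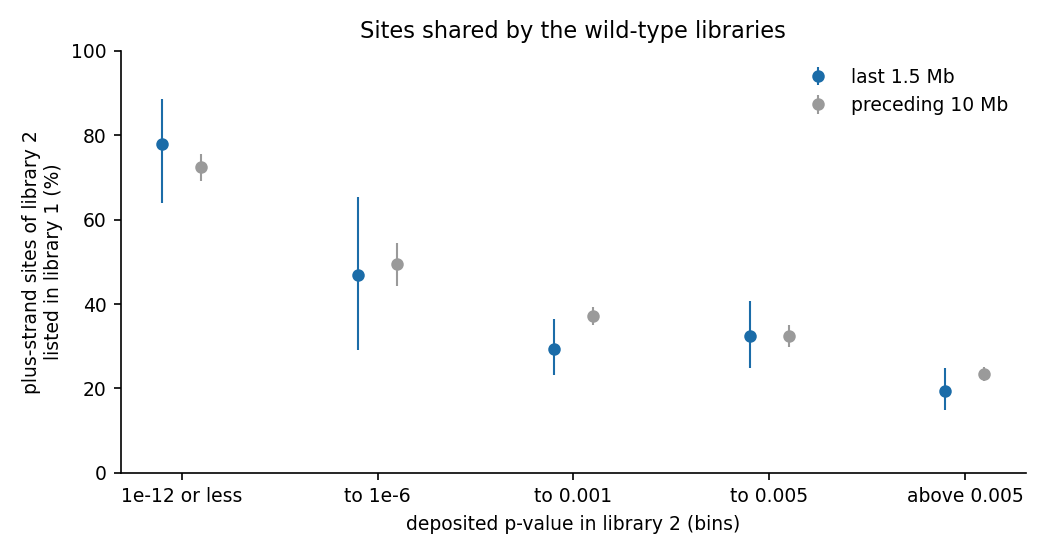
Same-base sharing on the plus strand, as the percentage of second-library sites that the first also lists, by bins of the deposited p-value, in the ends and in the preceding 10 Mb, with exact 95% binomial intervals. The share falls from 78.0% to 19.5% in the ends and from 72.4% to 23.4% before them as the p-value rises.

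At the 209 shared sites of the ends the median level in the first library was 15.8% (13% to 17.3%), above the 10.9% (10.6% to 11.3%) of its 3884 other sites there. Before the ends these medians were 16% and 10.5%. The shared sites were spread thinly: 136 windows of 10 kb held 1 of them, 24 held 2, 5 held 3 and 1 held 10. The window with 10, on chromosome 4 from 154350001 to 154360000, had a median level of 72.8% at its shared sites and no site in either shRNA library. Windows with 3 lay on chromosome 2 from 181020001, chromosome 8 from 131260001, chromosome 9 from 123160001, chromosome 11 from 121140001 and chromosome 13 from 120210001. Their median levels at shared sites were 39.4%, 8.56%, 94.1%, 43.9% and 63.5%. In the chromosome 8 window no reads were recovered for the 3 sites of the second library.

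Only 5 sites of the ends were listed in both whole-genome libraries and in an shRNA library, 2.39% (0.781% to 5.49%) of the shared sites, against 9 or 0.354% (0.162% to 0.671%) in the preceding 10 Mb. The count takes in plus-strand cytosines only, since the first whole-genome library lists no others, and misses shRNA sites on the minus strand. Their contexts in the first library were these.
chromosome 2, position 181667150: atCGa
chromosome 10, position 129979388: gcCGt
chromosome 10, position 129979396: gcCGg
chromosome 17, position 95264274: aaCGg
chromosome 2, position 181414664: ctCGg
The first was at 46.2% in the first whole-genome library and at 100% with Tdg shRNA, and was not listed with control shRNA. Both chromosome 10 sites, 13.7 kb from the last listed site, were at 45.4% and 47.5% in the first whole-genome library, had p-values of 3.17e-13 in the second and were at 100% in both shRNA libraries. The chromosome 17 site was at 32.7%, had 8 of 19 reads converted in the second library and was at 71.4% with control and 42% with Tdg shRNA. The last was at 14.7%, had 5 of 16 reads converted, was at 22.8% with control shRNA and was not listed with Tdg shRNA. In the order above, the 5 sites lay 80.1, 13.7, 13.7, 6.62 and 332.6 kb from the last listed site of their chromosome. The 2 on chromosome 10 are neighbours and are not separate regions. Of all first-library sites of the ends, 307 of 4093 lay within 100 kb of the last listed site. The distances of all shared sites were not counted.

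More of the shRNA library sites of the ends lay near a site of wild-type DNA. Within 100 bp of a whole-genome site, the same base included, were 56.3% (49.4% to 63.1%) of control shRNA sites in the ends and 46.7% (44.1% to 49.2%) before them. For Tdg shRNA sites the shares were 65.5% (56.0% to 74.2%) and 47.6% (44.3% to 51.0%). At the same base the shares were 6.57% and 4.52% for control and 6.19% and 7.22% for Tdg shRNA, with overlapping intervals. The shRNA lists name no strand, and over the whole lists 412 control and 628 Tdg shRNA positions fell on the plus-strand cytosine of a CpG of the first whole-genome library and 437 and 593 on its minus-strand cytosine. A same-base match on the minus strand is possible with the second whole-genome library alone. In the shRNA libraries the interval of the density ratio to the preceding 10 Mb included 1. With control shRNA the ends held 7.47 and the preceding 10 Mb 7.79 sites per Mb, a ratio of 0.959 (0.827 to 1.11), and with Tdg shRNA 3.96 and 4.66, a ratio of 0.850 (0.693 to 1.04). The Tdg shRNA interval excluded 1 against the preceding 5 Mb, at 0.786 (0.635 to 0.967), and without chromosome 4, at 0.759 (0.605 to 0.943). Over all CpGs of the first whole-genome library the interval, 0.654 to 0.697, lay below that of control shRNA and overlapped that of Tdg shRNA. The shRNA libraries were cut with MspI, so all CpGs are an unlike set. CpGs of the first whole-genome library in MspI sites had a ratio of 0.805 (0.730 to 0.886), whose interval overlaps both. Denser than the preceding 10 Mb were 10 ends with control shRNA, against 44.9% of stretches, and 8 with Tdg shRNA, against 43.6%. At under 0.5 times the preceding density were 6 ends with control shRNA, against 32.0% of stretches, and 7 with Tdg shRNA, against 34.0%. The interval of the ratio lay below 1 at 4 ends with control shRNA, against 17.4%, and at 1 with Tdg shRNA, against 9.57%. It lay above 1 at 4 ends, against 16.4%, and at 2, against 12.8%.

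The Tdg shRNA library listed fewer sites than the control shRNA library in the ends, as it did before them. The counts were 113 and 213 in the ends, a ratio of 0.531 (0.419 to 0.669), and 886 and 1481 before them, a ratio of 0.598 (0.550 to 0.651). The ratio of these ratios was 0.887 (0.689 to 1.14), so that a difference between ends and preceding sequence was not detectable with these counts. Against the whole rest of the chromosome it was 0.784 (0.618 to 0.992), with an interval that excludes 1. Each group was 1 library of unknown depth, and the ratio has no replicate check. By level, the ratio in the ends was 0.440 (0.307 to 0.624) below 10%, 0.560 (0.374 to 0.828) from 10% to 20%, 1.00 (0.468 to 2.14) from 20% to 90% and 0.538 (0.182 to 1.45) at 90% or more. Before them it was 0.424, 0.811, 0.730 and 0.800, and each ratio of ratios had an interval that included 1.

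The Tdg shRNA library listed fewer sites in 16 ends, more in 2 and as many in 1. Among the 13 ends with at least 10 sites in both libraries together, the highest ratios were those of chromosome 11, with 13 sites against 11 (1.18, 0.489 to 2.91), chromosome 13, with 5 against 6 (0.833), and chromosome 9, with 9 against 12 (0.750). More Tdg than control shRNA sites were thus found in 1 of these 13 ends, against 12.3% of stretches with as many sites. The lowest were chromosome 6, with 2 against 10 (0.2, 0.0213 to 0.938), chromosome 7, with 4 against 20 (0.2, 0.0497 to 0.597), and chromosome 16, with 2 against 9 (0.222, 0.0234 to 1.07). Chromosome 4 had 21 against 39, a ratio of 0.538 (0.301 to 0.938). The interval of the ratio lay below 1 in 4 of the 13, on chromosomes 4, 6, 7 and 15, against 13% of stretches, and in none of the 13 did the interval of the ratio of ratios exclude 1. Tdg shRNA sites made up a smaller share of the shRNA sites than before the end in 8 of 14 ends, against 49.8% of stretches.

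Sites listed in both shRNA libraries numbered 22 in the ends, 10.3% (6.59% to 15.2%) of the control and 19.5% (12.6% to 28.0%) of the Tdg shRNA sites there. The level was lower with Tdg shRNA at 15 of them, higher at 3 and equal at 4, all 4 at 100%. The median difference, Tdg minus control shRNA, was -4.05 points (-11.5 to 0), and -6.65 points (-13.1 to -2.41) over the 18 without ties. Before the ends 67 of 132 shared sites were lower, 44 higher and 21 equal, with a median of -0.0543 points (-2.28 to 0) over all and of -2.15 points (-4.19 to -0.0478) over the 111 without ties, so the intervals of ends and preceding sequence overlap for both medians. The largest decreases were on chromosome 19 at position 61302545, from 72.6% with control to 33.3% with Tdg shRNA, chromosome 17 at position 95264274, from 71.4% to 42%, and chromosome 4 at position 155068409, from 32.8% to 5.12%. The largest increase was 1.99 points, on chromosome 9 at position 123587977.

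**Figure D5:**
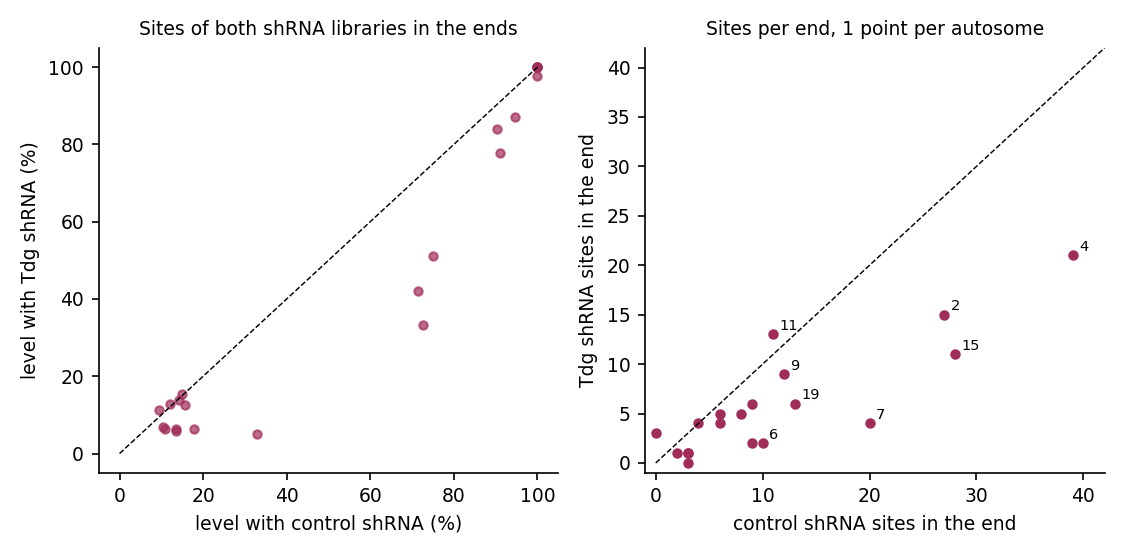
Left, level with Tdg shRNA against control shRNA at the 22 sites of the ends listed in both shRNA libraries; right, number of sites per end in each library, 1 point per autosome, with ends of at least 10 control shRNA sites numbered; dashed lines mark equality. On the left 15 points lie below the line, and on the right chromosome 11 is the only numbered end above it.

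Windows of 10 kb in the ends held at most 6 control and 4 Tdg shRNA sites. The window with the most, chosen after the values were seen, was on chromosome 1 from 197060001 to 197070000, with 6 control and 2 Tdg shRNA sites and 6 and 4 sites in the first and second whole-genome libraries. Its shared sites at positions 197067835 and 197067865 had levels of 91.0% and 94.6% with control and 77.8% and 87.1% with Tdg shRNA. In the same window, position 197067785 had 1962 recovered reads in the second whole-genome library, 102 of them converted, where the median of the ends was 12. The next deepest sites of the ends had 434, 255 and 232 reads, on chromosomes 15, 6 and 4.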

How the data were processed

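MAB-Seq site lists of 4 libraries were used as deposited. The tools named are Bismark 0.10.1 and CASAVA 1.8, on build mm9, per the submitters' processing notes. How sites were called and filtered, and from how many reads, is not given in the sources used here. The authors deposited a percent level per site for the first whole-genome library and both shRNA libraries, corrected for a background of 3.0%, 2.9% and 3.3% as the values show. For the second whole-genome library the authors deposited a p-value per cytosine. Read numbers were recovered at 85.3% of its sites by matching p-values above 1e-07 to binomial tails with a background of 3.8% and up to 2000 reads (relative tolerance 1e-08). The depth of the other libraries is unknown.

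Positions are given from 1. Ends and preceding 10 Mb were counted per library with Python 3.11 and SciPy 1.17.1. Shares have Clopper-Pearson, counts Poisson, ratios of counts conditional binomial and medians order-statistic 95% intervals, checked on simulated data. They cover counting error only. Intervals of a difference between ends and preceding sequence hold the error of the ends alone, with the preceding share or median taken as fixed. As background, each chromosome was tiled back from its end in stretches of 1.5 Mb, the end included, each set against its own preceding 10 Mb. Ends named are the 5 highest and 5 lowest ratios of the first library, and for shRNA counts the 3 highest and 3 lowest. Windows are those with most shared sites, and sites those in both wild-type and an shRNA library. The rule named 10 windows, the last 4 tied with 20 others at 2 shared sites, and these 4 are not listed. Members and lists were chosen with earlier results of these data known. Gene order comes from RefSeq's GRCm38.p6 table.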

Additional observations from a re-analysis of the deposited data

How the results depend on the processing

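The density ratio of the wild-type libraries was most affected by the stretch compared. Given for the first and second whole-genome libraries, it was 0.844 and 0.855 with ends of 3 Mb, 1.06 and 1.07 against the whole rest of the chromosome, which turned its direction, and 0.604 and 0.594 without chromosome 4. It was 0.549 and 0.489 as the median over chromosomes and 0.931 and 0.932 per 10 kb window with a site, both chosen after seeing the data. It was 0.699 at levels of 10% or more in the first, and 0.639 with ends of 0.5 Mb and 0.497 at p-values up to 1e-06 in the second. Leaving out either replicate gave 0.675 and 0.676. For control and Tdg shRNA it was 1.18 and 1.12 with ends of 3 Mb, 1.45 and 1.14 against the whole rest, and 1.32 and 1.17 per window with a site.

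Denser ends numbered 5 in each wild-type library. With ends of 3 Mb there were 8 in both, and against the preceding 5 Mb 3 in both. There were 3 with ends of 0.5 Mb in the first library, and 3 on the plus strand alone and 1 at p-values up to 1e-06 in the second. The median level difference of the first library, 0.412 points, was 1.34 points with ends of 0.5 Mb and 0 with 3 Mb. The difference in shared sites, -5.34 points, was -1.37 with ends of 0.5 Mb, and turned to 1.24 at p-values up to 1e-06 and to 4.25 within 100 bp. The cause of these changes was not tested. Of 98 alternatives, 67 left a value within its interval or a count within 1.5 times, those of the Tdg to control shRNA ratios among them. Sites per CpG were not run, since no genome was used. No paired analysis was possible because the groups compared share fewer than 2 replicate numbers.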
